A study of Mus musculus with 4 samples.

Results

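Mitochondrial respiratory chain genes of complexes I to V were compared between 2 kinds of mouse macrophage grown from bone marrow. Members were all genes whose single symbol in the platform annotation begins with Nduf, Uqcr or Atp5, is Sdha to Sdhd, or begins with Cox4 to Cox8. The rule used names only and no measured value. It found 89 genes of 19938 with a single symbol, each read from the probe set with the highest mean over the 4 arrays. Dim genes were set aside: only a gene above the 30th percentile of the probe sets on 2 or more of the 4 arrays was tested. That left 88 members of 14995 genes. Complex I contributed 36 subunits and 7 assembly factors, complex II 4 genes, complex III 8, complex IV 17 and complex V 17.

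All 4 samples came from C57BL/6J bone marrow cells, cultured for 7 days and sorted by flow cytometry. The 2 GM-CSF M1 samples were grown in granulocyte-macrophage colony-stimulating factor (GM-CSF), and cells positive for CD45, MHCII and F4/80 and negative for CD8a were collected. The 2 M-CSF M2 samples were grown with M-CSF (macrophage colony-stimulating factor), given as 20% L929 cell supernatant, and cells positive for CD45, F4/80 and CD11b were collected. Growth factor, medium supplement and sort gate therefore differ together and cannot be told apart, and the names M1 and M2 are those of the labels. Each sample was 1 array of log2 expression values, a scale on which 1 unit is a 2-fold difference. Differences are given as GM-CSF M1 minus M-CSF M2.

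The respiratory chain sits in the inner mitochondrial membrane. Complex I (NADH dehydrogenase) and complex II (succinate dehydrogenase) pass electrons to ubiquinone, complex III passes them to cytochrome c, and complex IV (cytochrome c oxidase) passes them to oxygen. Complexes I, III and IV pump protons, and complex V (ATP synthase) uses the gradient to make ATP. Most subunits are encoded in the nucleus and a few in mitochondrial DNA. In macrophages the balance between glycolysis and oxidative phosphorylation is a much studied property of activation states. Complex I and complex II are known sites of reactive oxygen formation, and complex II is the site of succinate oxidation.

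The macrophage label was checked against 8 measured macrophage markers. Among them, Ptprc and Adgre1 encode antigens that both sort gates selected for, and Itgam one that the M-CSF M2 gate selected for. The levels of these genes are therefore not an independent check of the label. None of the 8 markers passed the limma test (1 at an unadjusted p under 0.05, Cd68, higher). The mean level of the 8 was 11.76 and 11.89 on the GM-CSF M1 arrays, against 11.76 and 11.68 on the M-CSF M2 arrays. Of 7 dendritic cell markers, 3 were called higher in GM-CSF M1, against 6.18% of all genes, namely Itgax (4.53), Clec9a (2.44) and Ccr7 (1.16). Not called were Cd209a (0.61) and Zbtb46 (0.25) above 0, and Flt3 (-0.32) and Xcr1 (-0.19) below 0. Both means of Flt3 and of Xcr1 lay under 5.90, the 95th percentile of olfactory receptor genes, which stand here for background. The dendritic cell list mean was 6.96 and 6.67 on the GM-CSF M1 arrays and 5.59 and 5.63 on the M-CSF M2 arrays. Of 8 neutrophil markers Mpo was called lower (-0.64), while Ly6g (1.02) and S100a8 (0.89) lay above 0 and were not called. Both means of Ly6g and the GM-CSF M1 mean of Mpo (5.67) lay within the background range. Of 5 fibroblast markers Dcn was called higher (1.07). The other 4 lay between -0.29 and -0.10, and the list median was -0.16. Of these 4, Col1a1 and Pdgfra were at an unadjusted p under 0.05 in limma, Pdgfra with both means within the background range. Of 5 genes of dividing cells none passed (1 unadjusted, Plk1, higher). The filter on dim genes left only 1 of 6 measured mast cell, basophil and eosinophil markers and 2 of 4 measured lymphocyte markers. None of those tested passed, adjusted or not. The part of these marker differences in the values of the respiratory chain genes was not tested. GM-CSF M1 replicate 1 stood apart for sex-linked genes: Xist, the X inactivation transcript, read 11.58 there and 4.93 on GM-CSF M1 replicate 2, against 4.53 and 4.80 in M-CSF M2. The neutrophil list mean was 6.84 on that array and 6.14 on GM-CSF M1 replicate 2, against 6.31 and 6.27 in M-CSF M2. S100a8 read 8.54 and 7.04 in GM-CSF M1, and Ngp 9.02 and 7.02. Mpo, Elane and Camp were slightly lower on GM-CSF M1 replicate 1 than on replicate 2. The part of this gap in the respiratory chain values was not tested. Whether replicates are separate cultures or animals is not in the labels. The p-values therefore rest only on the spread among these 4 samples. That spread may be technical in the M-CSF M2 pair, while the GM-CSF M1 pair differs in Xist and in the Y-linked Eif2s3y, at 3.66 and 9.10 in GM-CSF M1, against 9.32 and 9.17 in M-CSF M2.

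Respiratory chain transcripts differed by less than 1 log2 unit between the 2 macrophage types, and those that passed the test were lower in GM-CSF M1. Only 2 of 88 members (2.27%) were called by limma at an adjusted p under 0.05, Ndufa4 and Cox4i1, both lower in GM-CSF M1. Over all genes 10.7% were called, 6.18% higher and 4.53% lower. No member was called higher. At an unadjusted p under 0.05 limma counted 13 members (14.8%, against 25.5% of all genes), 12 of them lower (13.6%, against 12.6% of all genes) and 1 higher (1.14%, against 12.9% of all genes), the complex I subunit Ndufb3. No member differed by 1 log2 unit or more, as 4.83% of all genes did, and 5 members (5.68%) differed by at least 0.5, against 14% of all genes. Both calls ended when either M-CSF M2 array was left out. Less RNA per cell and fewer cells of a type cannot be told apart in these bulk samples.

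The members moved little but not evenly about 0. The difference was below 0 for 60 of 88 members (68.2%, against 52.4% of all genes) and above 0 for 28 (31.8%, against 47.6%), with a median of -0.07 over the members and -0.01 over all genes tested. The arrays of the groups did not overlap for 55 members (62.5%, against 55.4% of all genes): for 37 lower in GM-CSF M1 (42%, against 29.2% of all genes) and for 18 higher (20.5%, against 26.3%). The 5th and 95th percentiles of the difference were -0.50 and 0.20 over members, and -0.55 and 0.76 over all genes tested. For 85 members (96.6%, against 89.7% of all genes) the 95% interval of the difference lay within 1 log2 unit of 0, and the exceptions were Ndufa4, Ndufb2 and Cox6a2. The difference exceeded the gap inside both replicate pairs for 42 members (47.7%, against 43.0% of all genes). No member had replicates 1 log2 unit or more apart.

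**Figure D1:**
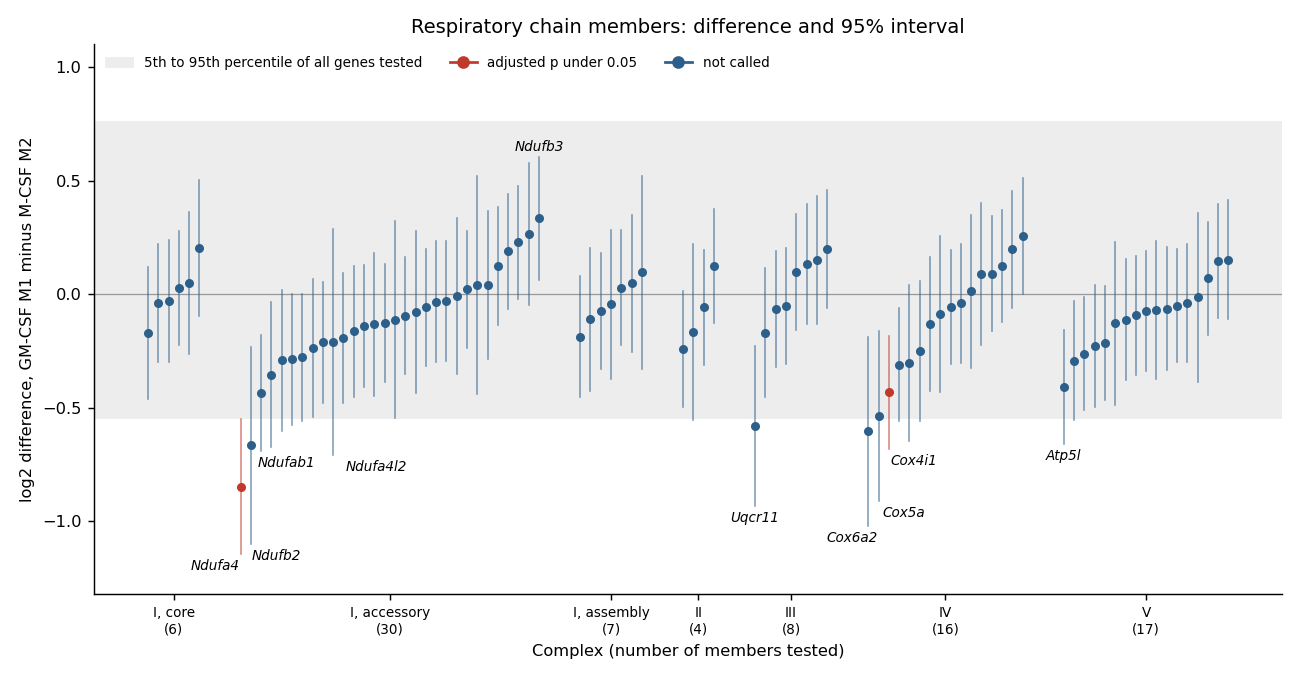
Difference of each tested member (log2, GM-CSF M1 minus M-CSF M2, y axis) with its 95% interval as a line, grouped by complex along the x axis and sorted within each group. Red points are the 2 members called at an adjusted p under 0.05, Ndufa4, placed with complex I by its symbol, and Cox4i1 in complex IV. Blue points are not called, and the grey band spans the 5th to 95th percentile of all genes tested, -0.55 to 0.76.

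Promoter sequence is shown first for 5 of the 7 members that were called in at least 1 setting with all 4 arrays, those with an entry, because respiratory chain genes are known targets of the transcription factors NRF-1, GABP and YY1. RefSeq (GRCm38.p6) gave a promoter, 250 bases before to 50 after the start, for 73 of the 89 members. The windows below hold the 150 bases before the start, 5′ to 3′ on the gene's strand, with a motif match in capitals.
Ndufa4, chr6:11907451-11907600, minus strand: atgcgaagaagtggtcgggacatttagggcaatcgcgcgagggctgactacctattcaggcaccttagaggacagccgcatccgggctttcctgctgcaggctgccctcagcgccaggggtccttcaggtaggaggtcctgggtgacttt
Ndufb2, chr6:39592415-39592564, plus strand: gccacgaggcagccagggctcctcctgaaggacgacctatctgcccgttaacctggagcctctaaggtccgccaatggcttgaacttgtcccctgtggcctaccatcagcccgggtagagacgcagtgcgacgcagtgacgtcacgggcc
Ndufab1, chr7:122101849-122101998, minus strand: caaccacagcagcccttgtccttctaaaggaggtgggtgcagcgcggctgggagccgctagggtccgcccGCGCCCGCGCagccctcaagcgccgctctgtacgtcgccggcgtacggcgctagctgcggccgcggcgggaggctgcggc
Uqcr11, chr10:80406822-80406971, minus strand: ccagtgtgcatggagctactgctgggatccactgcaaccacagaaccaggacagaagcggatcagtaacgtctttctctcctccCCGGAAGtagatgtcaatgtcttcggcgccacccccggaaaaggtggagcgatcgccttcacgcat
Atp5l, chr9:44920743-44920892, minus strand: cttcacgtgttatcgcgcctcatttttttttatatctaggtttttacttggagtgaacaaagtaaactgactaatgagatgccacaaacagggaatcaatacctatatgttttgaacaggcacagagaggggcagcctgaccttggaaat
The capitals mark the NRF-1 word in Ndufab1, which is GCGC, any 2 bases and GCGC again, at position -80 from the start site, and the ETS word of GABP, CCGGAAG, in Uqcr11, at position -66. None of the 3 words searched stands in the windows of Ndufa4, Ndufb2 and Atp5l, and Atp5l holds the ETS word outside its window, at positions -212 and 25.

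Each word was searched on both strands over the whole promoter, and the 3 words were kept after the shares of several words had been looked at. The NRF-1 word stood in 20 member promoters (27.4%), against 7.00% of 27025 RefSeq promoters and 12.8% of the 11826 promoters of genes tested here. The ETS word stood in 18 (24.7%), against 9.93% and 17.0%. The YY1 word AAGATGGC stood in 10 (13.7%), against 3.19% and 4.56%. At least 1 of the 3 words stood in 42 member promoters (57.5%), against 17.9% and 29.9%. By complex that was 18 of 32 promoters in complex I, 3 of 6 for its assembly factors, 3 of 3 in complex II, 3 of 5 in complex III, 3 of 12 in complex IV and 12 of 15 in complex V. The median GC content was 58.3% for members, 52.8% for all promoters and 60% for genes tested. Members with a match had a median expression difference of -0.08 (n = 42) and members without one -0.04 (n = 30 tested). A match describes the letters only.

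Complex I is the entry point for electrons from NADH. Of the 36 genes counted as its subunits by symbol, 1 was called lower in GM-CSF M1 and 0 higher. Limma gave 4 lower and 1 higher at an unadjusted p under 0.05, and the median difference was -0.09. The 1 called gene, Ndufa4, was first described with complex I and is now known as a subunit of complex IV. It read 7.316 and 7.178 on the GM-CSF M1 arrays, against 8.192 and 7.999 on the M-CSF M2 arrays. Both GM-CSF M1 arrays were below both M-CSF M2 arrays, and the difference was -0.85 ± 0.12 (SE, n = 2 each, 95% interval -1.14 to -0.55), 1.80-fold lower, with an adjusted p of 0.00931 in limma. Its adjusted p was 0.137 without M-CSF M2 replicate 1 and 0.0942 without replicate 2, with differences of -0.75 and -0.94.

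The core of complex I holds the flavin, the iron-sulfur clusters and the quinone site. The 6 core subunits measured among the members had a median difference of -0.0026, and none was called. None reached an unadjusted p under 0.05 in limma either. Ndufs1, the largest iron-sulfur subunit, read 7.92 and 8.02 in GM-CSF M1 against 8.24 and 8.04 in M-CSF M2. Ndufv1, which holds the flavin and binds NADH, read 8.95 and 9.18 in GM-CSF M1 against 8.89 and 8.83 in M-CSF M2. These 2 were the farthest from 0 among the core subunits, at -0.17 (95% interval -0.46 to 0.12) and 0.20 (-0.10 to 0.50), on opposite sides. Ndufs3 differed by 0.05, Ndufs7 by 0.03, Ndufv2 by -0.03 and Ndufs8 by -0.04, with 95% intervals that all stayed between -0.46 and 0.50. The arrays of the groups overlapped for 4 of the 6, against 6681 of the 14995 genes tested.

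Accessory subunits of complex I surround the core and are needed for its assembly and stability. By symbol 30 genes were counted as accessory, among them Ndufa4 and its homologue Ndufa4l2. The median difference of the 30 genes was -0.12, with 22 below 0 (52.4% of all genes were) and 8 above. Ndufb2, an accessory subunit of the membrane arm, read 5.82 and 5.78 on the GM-CSF M1 arrays, against 6.72 and 6.21 on the M-CSF M2 arrays. The groups did not overlap, and the difference of -0.67 ± 0.18 (95% interval -1.10 to -0.23) had an adjusted p of 0.0686 in limma. Leaving out M-CSF M2 replicate 1 gave -0.41 and leaving out replicate 2 gave -0.92. Olfactory receptor genes stand here for background, and both GM-CSF M1 values lay under their 95th percentile of 5.90, so the size of that difference may be a lower bound.

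Ndufab1, the mitochondrial acyl carrier protein, read 8.29 and 8.23 in GM-CSF M1 against 8.73 and 8.66 in M-CSF M2, a difference of -0.43 ± 0.11 (95% interval -0.69 to -0.18) with an adjusted p of 0.0521 in limma. The arrays were apart for 14 accessory subunits lower in GM-CSF M1 and for 5 higher, of 30, against 29.2% and 26.3% of all genes. Below 0 and not called were also Ndufb7 (-0.36), Ndufa5 (-0.29), Ndufa12 (-0.29), Ndufa11 (-0.28), Ndufc2 (-0.24), Ndufa10 (-0.21), Ndufa6 (-0.19) and Ndufb5 (-0.16). Ndufb8, Ndufb11, Ndufa7, Ndufs6, Ndufs4, Ndufb10, Ndufb6, Ndufs5, Ndufa13 and Ndufv3 lay between -0.14 and -0.01. Above 0 were Ndufb9, Ndufa9, Ndufa3, Ndufa8, Ndufa1, Ndufa2, Ndufc1 and Ndufb3, the last at 0.33 ± 0.11 with 6.71 and 6.79 in GM-CSF M1 against 6.48 and 6.35 in M-CSF M2. The adjusted p of Ndufb3 was 0.122 in limma.

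The 7 Ndufaf genes, whose products build complex I and leave it, had a median difference of -0.05 and none was called, with 0 at an unadjusted p under 0.05 in limma. Ndufaf6 read 5.91 and 6.05 in GM-CSF M1 against 6.17 and 6.17 in M-CSF M2, a difference of -0.19. Ndufaf4 differed by -0.11 and Ndufaf2 by 0.10, and the arrays of both groups overlapped for each. Ndufaf7, Ndufaf3, Ndufaf5 and Ndufaf1 lay between -0.08 and 0.05.

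Complex II oxidises succinate to fumarate and is shared with the tricarboxylic acid cycle. None of its 4 genes was called, and none reached an unadjusted p under 0.05 in limma, with a median difference of -0.11. Sdha, the flavoprotein that binds succinate, read 10.02 and 10.04 in GM-CSF M1 against 10.13 and 10.05 in M-CSF M2, with a 95% interval of the difference of -0.31 to 0.20. Sdhb, the iron-sulfur subunit, read 9.65 and 10.06 in GM-CSF M1 against 10.08 and 9.96 in M-CSF M2, so the GM-CSF M1 replicates were farther apart than the group means. The membrane anchors Sdhc and Sdhd lay on opposite sides of 0. Sdhc read 9.62 and 9.70 in GM-CSF M1 against 9.93 and 9.87 in M-CSF M2 (difference -0.24, 95% interval -0.50 to 0.02). Sdhd read 9.55 and 9.51 in GM-CSF M1 against 9.43 and 9.38 in M-CSF M2 (difference 0.12, 95% interval -0.13 to 0.38). Neither anchor had overlapping groups, which was also so for 55.4% of all genes.

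Complex III passes electrons from ubiquinol to cytochrome c. Its 2 large core proteins and the Rieske iron-sulfur protein were all slightly above 0 and not called. Uqcrc1 read 9.69 and 9.89 in GM-CSF M1 against 9.63 and 9.65 in M-CSF M2, and Uqcrc2 read 10.73 and 10.81 in GM-CSF M1 against 10.70 and 10.65 in M-CSF M2. The Rieske protein gene Uqcrfs1 read 7.65 and 7.60 in GM-CSF M1 against 7.56 and 7.43 in M-CSF M2. The differences were 0.15 for Uqcrc1, 0.10 for Uqcrc2 and 0.13 for Uqcrfs1. None of their groups overlapped, as was so for 55.4% of all genes. Uqcr11, the smallest subunit of the complex, read 8.31 and 8.68 on the GM-CSF M1 arrays, against 9.09 and 9.06 on the M-CSF M2 arrays. It was the lowest of the complex in GM-CSF M1 relative to M-CSF M2, at -0.58 ± 0.14 (95% interval -0.93 to -0.23), with an adjusted p of 0.0567 in limma. Its second probe set gave -0.31. The other accessory subunits were Uqcr10 (0.20), Uqcrh (-0.17), Uqcrq (-0.07) and Uqcrb (-0.05). Over the 8 genes 0 were called, 1 was lower at an unadjusted p under 0.05 in limma (Uqcr11), and the median difference was 0.02.

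Complex IV holds 3 mitochondrially encoded core subunits and a set of nuclear ones, several with a form made in most tissues and a form made in few. Of 16 tested genes 1 was called lower in GM-CSF M1 and 0 higher (limma, with 4 lower and 0 higher at an unadjusted p under 0.05), with a median difference of -0.07. Cox4i1, the main form of the largest nuclear subunit, read 9.18 and 9.20 on the GM-CSF M1 arrays, against 9.64 and 9.60 on the M-CSF M2 arrays. Each pair was within 0.05 of its partner and the groups lay apart, with a difference of -0.43 ± 0.10 (95% interval -0.68 to -0.18), 1.35-fold lower and an adjusted p of 0.0494 in limma. This call sat at the threshold: the adjusted p was 0.0731 with no filter on dim genes, 0.0644 with arrays centred on their medians, and 0.314 or 0.267 without M-CSF M2 replicate 1 or 2.

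The 9 ubiquitous forms of complex IV had a median difference of -0.25, with 6 below 0 (52.4% of all genes were) and 3 above. Of the 9, 6 had both GM-CSF M1 arrays below both M-CSF M2 arrays, as 29.2% of all genes had. Cox5a, a matrix-side subunit, read 9.03 and 9.43 in GM-CSF M1 against 9.78 and 9.76 in M-CSF M2, a difference of -0.54 ± 0.15 (95% interval -0.91 to -0.16) with an adjusted p of 0.0847 in limma. Leaving out GM-CSF M1 replicate 1 gave -0.33 and leaving out replicate 2 gave -0.74. Its partner Cox5b, which binds zinc, differed by -0.25, Cox6b1 by -0.31 and Cox6a1 by -0.30. Cox6c differed by -0.06. On the other side of 0 were Cox7b (0.09), Cox8a (0.12) and Cox7a2 (0.20).

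**Figure D2:**
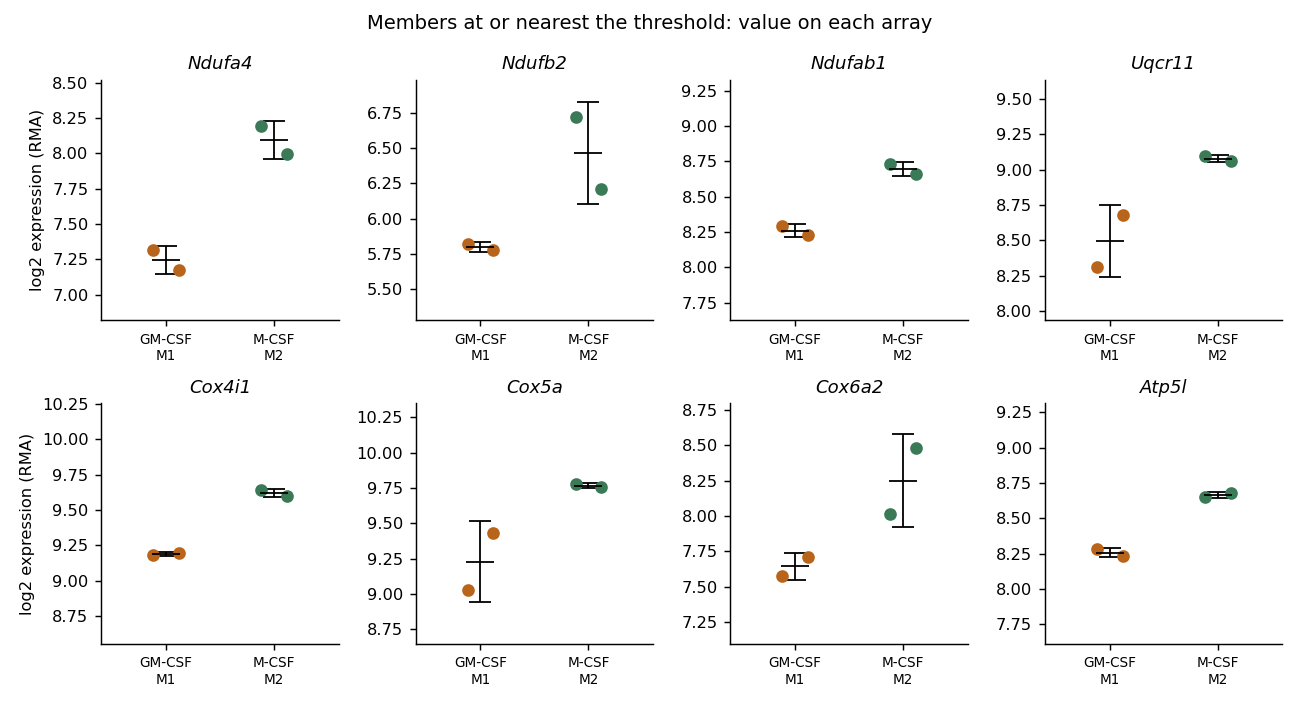
Log2 expression on each array (points, y axis) of 8 members at or nearest the threshold, with GM-CSF M1 left of M-CSF M2 in every panel, the group mean as a bar and 1 SD as whiskers (n = 2 each). All panels span the same number of log2 units. Both GM-CSF M1 points lie below both M-CSF M2 points in every panel, and the replicate gap is widest for Ndufb2 in M-CSF M2 and for Cox5a, Uqcr11 and Cox6a2.

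In no isoform pair was one form called higher and its partner lower. Cox4i2, the lung form that replaces Cox4i1 under low oxygen in many cells, read 6.19 and 6.25 in GM-CSF M1 against 6.24 and 6.46 in M-CSF M2, a difference of -0.13 with a 95% interval of -0.43 to 0.16. Ndufa4l2, the Ndufa4 homologue known as a target of the oxygen-regulated factor HIF-1, read 5.26 and 5.85 in GM-CSF M1 against 5.66 and 5.87 in M-CSF M2, within the background range (difference -0.21, 95% interval -0.71 to 0.29). Neither was called, and neither was above 0 beside the lower values of Cox4i1 and Ndufa4. Cox6a2, the heart and skeletal muscle form, read 7.57 and 7.71 in GM-CSF M1 against 8.01 and 8.48 in M-CSF M2, a difference of -0.60 ± 0.17 (95% interval -1.02 to -0.19) with an adjusted p of 0.0812 in limma. Leaving out M-CSF M2 replicate 1 gave -0.84 and leaving out replicate 2 gave -0.37. Its ubiquitous partner Cox6a1 read 8.78 and 9.02 in GM-CSF M1 against 9.33 and 9.07 in M-CSF M2.

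Cox6b1 and its testis form Cox6b2 lay on opposite sides of 0. Cox6b1 read 10.49 and 10.51 in GM-CSF M1 against 10.83 and 10.80 in M-CSF M2 (-0.31), and Cox6b2 read 6.20 and 6.22 in GM-CSF M1 against 6.00 and 5.91 in M-CSF M2 (0.25). Neither was called. The muscle form Cox7a1 differed by -0.04 and the related supercomplex factor Cox7a2l by -0.09, with overlapping groups in each. Cox8b (0.09) stayed within the background range and Cox8c (0.01) had overlapping groups. Cox7b2, at 3.79 and 3.85 in GM-CSF M1 and 3.84 and 3.89 in M-CSF M2, was the member left out by the filter on dim genes, and the nearest member inside it was Ndufa4l2, with 3 of 4 arrays above the limit. Cross-hybridisation between paralogues was not tested.

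**Figure D3:**
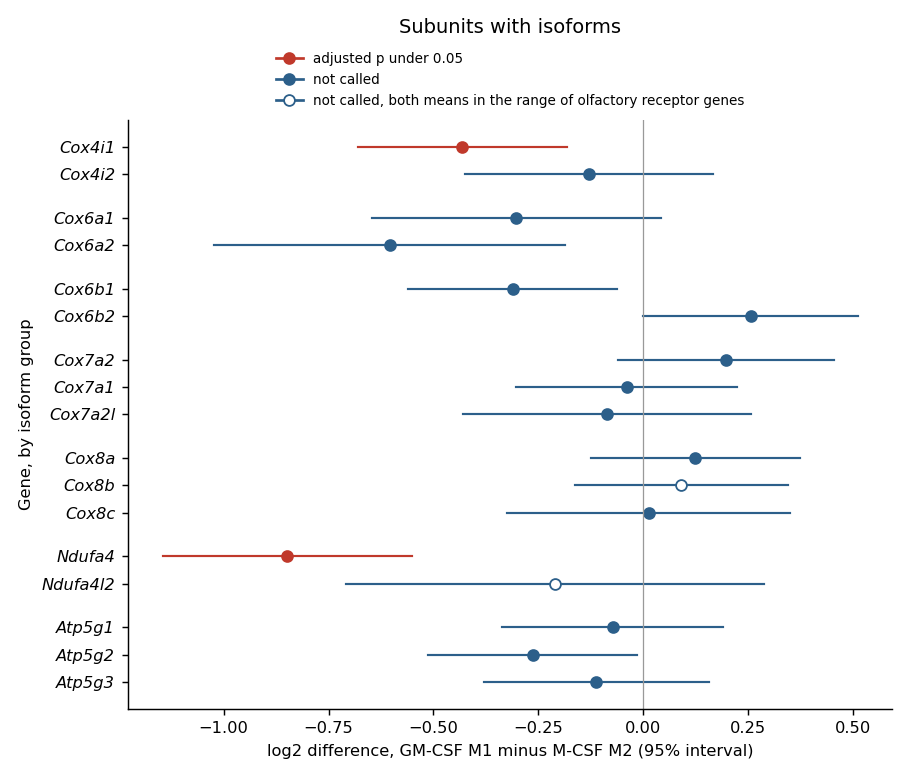
Difference (log2, GM-CSF M1 minus M-CSF M2, x axis) with its 95% interval for subunits that have isoforms, grouped by isoform set down the y axis. Ndufa4 and Cox4i1, in red, are called and lie at -0.85 and -0.43, blue points are not called, and open points (Cox8b, Ndufa4l2) had both means within the range of olfactory receptor genes.

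Complex V makes ATP with a membrane rotor and a catalytic F1 head. None of its 17 genes was called, and 3 were lower and 0 higher at an unadjusted p under 0.05 in limma. The median difference was -0.07, with 14 below 0 (52.4% of all genes were) and 3 above. The catalytic beta subunit Atp5b read 12.37 and 12.50 in GM-CSF M1 against 12.28 and 12.29 in M-CSF M2, and the alpha subunit Atp5a1 read 10.49 and 10.61 in GM-CSF M1 against 10.66 and 10.56 in M-CSF M2. The 95% interval of the difference was -0.11 to 0.41 for Atp5b and -0.33 to 0.21 for Atp5a1. The other F1 genes differed by -0.13 (Atp5e), -0.05 (Atp5c1) and 0.07 (Atp5d).

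Outside the F1 head, 11 of the 12 genes were below 0, against 52.4% of all genes, and these lay between -0.41 and -0.01. None of the 12 was called. In the c ring, the rotor that protons turn, 3 genes encode the same mature protein with different import signals. Atp5g2 read 11.26 and 11.30 in GM-CSF M1 against 11.53 and 11.55 in M-CSF M2 (difference -0.26, 95% interval -0.51 to -0.01, adjusted p of 0.173 in limma), Atp5g3 differed by -0.11 and Atp5g1 by -0.07. In the membrane part, Atp5l, subunit g, read 8.28 and 8.24 in GM-CSF M1 against 8.65 and 8.68 in M-CSF M2. The replicates lay close together and the groups apart, with a difference of -0.41 ± 0.10 (95% interval -0.66 to -0.16) and an adjusted p of 0.0579 in limma. Its 6 probe sets gave differences between -0.51 and -0.35. Atp5mpl differed by -0.22, Atp5k by -0.07, Atp5j2 by -0.04 and Atp5md by -0.01. In the peripheral stalk, Atp5o, the subunit that confers oligomycin sensitivity, read 9.09 and 9.11 in GM-CSF M1 against 9.33 and 9.46 in M-CSF M2 (-0.29, adjusted p of 0.153 in limma). Atp5h differed by -0.23, Atp5pb by -0.09 and Atp5j by 0.15.

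Probe sets of one member gave the same sign in each of the 17 members that had several, over 42 probe sets, and the largest gap was 0.28, for Uqcr11. The 3 X-linked members, read with the array that stands apart for Xist in mind, were Ndufa1, Ndufb11 and Cox7b, and none was called (0 at an unadjusted p under 0.05 in limma). Ndufa1 read 7.31 and 7.39 in GM-CSF M1 against 7.17 and 7.15 in M-CSF M2. Ndufb11 read 10.46 and 10.18 in GM-CSF M1 against 10.44 and 10.46 in M-CSF M2. Cox7b read 11.92 and 11.64 in GM-CSF M1 against 11.68 and 11.71 in M-CSF M2, so GM-CSF M1 replicate 1 held its highest value. With any 1 array left out, the difference stayed between -0.94 and -0.75 for Ndufa4 and between -0.45 and -0.41 for Cox4i1.

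Genes that serve the chain but fall outside the naming rule were read in the same fit. Of 8 carriers and other chain genes tested, 0 were called by limma (1 higher and 2 lower at an unadjusted p under 0.05), with a median difference of -0.07. Cytochrome c, Cycs, read 11.56 and 11.41 in GM-CSF M1 against 11.71 and 11.57 in M-CSF M2, and cytochrome c1, Cyc1, read 9.53 and 9.57 in GM-CSF M1 against 9.33 and 9.28 in M-CSF M2. Higd1a and the complex III assembly factor Bcs1l each differed by -0.33. Higd2a, a factor that helps assemble respiratory supercomplexes, read 10.18 and 9.81 in GM-CSF M1 against 9.37 and 9.43 in M-CSF M2, a difference of 0.59 ± 0.15 with an adjusted p of 0.0546 in limma.

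Among 36 assembly factors tested, 2 fell and 0 rose in GM-CSF M1, a share near the 4.53% of all genes called lower, and both are known to act on complex III. Uqcc2 read 9.20 and 9.29 in GM-CSF M1 against 10.00 and 9.96 in M-CSF M2, a difference of -0.73 ± 0.11 (1.66-fold lower, adjusted p of 0.00934 in limma). Uqcc1, its partner in the synthesis of cytochrome b, read 7.14 and 7.21 in GM-CSF M1 against 7.77 and 7.59 in M-CSF M2, a difference of -0.51 ± 0.12 (1.42-fold lower, adjusted p of 0.0443). Both calls ended when either M-CSF M2 array was left out, at adjusted p of 0.139 and 0.130 for Uqcc2 and 0.319 and 0.184 for Uqcc1. Uqcc1 also lost its call with no filter on dim genes (0.0632) and with arrays centred on their medians (0.0546). Tmem70, a factor for complex V, differed by -0.42 (adjusted p of 0.0613 in limma). The list median was -0.02.

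Only 2 of the 13 mitochondrially encoded subunits were read here, and 0 were called (limma, 0 at an unadjusted p under 0.05). COX2 of complex IV read 12.85 and 12.50 in GM-CSF M1 against 12.79 and 12.82 in M-CSF M2, and ND3 of complex I read 11.76 and 11.25 in GM-CSF M1 against 11.67 and 11.65 in M-CSF M2. In both, the lower GM-CSF M1 value came from replicate 2, and without that array the difference was 0.05 for COX2 and 0.10 for ND3. Of 15 genes of the tricarboxylic acid cycle and pyruvate dehydrogenase, 0 were called by limma (2 lower and 0 higher unadjusted), with a median of -0.03 and the farthest at -0.29 for Suclg1, a subunit of succinyl-CoA synthetase, ahead of the pyruvate dehydrogenase subunits Pdha1 (-0.27) and Dlat (0.27). Of 8 quinone-linked dehydrogenases 0 were called (1 higher and 1 lower unadjusted). Sqor, which oxidises sulfide, differed by 0.46 ± 0.11 (adjusted p of 0.0509 in limma), and Dhodh, which makes a pyrimidine precursor, by -0.41 ± 0.11 (0.0663). Etfb, a subunit of the electron transfer flavoprotein, differed by -0.33.

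Of 14 tested regulators of mitochondrial biogenesis 1 rose, a share near the 6.18% of all genes called higher. This was Ppargc1b, a coactivator of respiratory genes. It read 7.08 and 7.20 in GM-CSF M1 against 6.61 and 6.67 in M-CSF M2, a difference of 0.50 ± 0.11 (1.41-fold, adjusted p of 0.0379 in limma). Its call ended with no filter on dim genes (0.0548) and without M-CSF M2 replicate 1 or 2 (0.289 and 0.232). The next largest differences were below 0 and not called, with -0.35 for Esrra, a nuclear receptor of mitochondrial genes, and -0.34 for Pprc1, a relative of Ppargc1b. At an unadjusted p under 0.05 limma counted 1 higher and 1 lower, and the lower one was Gabpb1 (-0.29), a subunit of GABP. Nrf1 and Gabpa, which encode NRF-1 and the DNA-binding subunit of GABP, differed by -0.05 and -0.07, and Tfam, which packages and transcribes mitochondrial DNA, by -0.10. The list median was -0.08.

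In the low oxygen and succinate dehydrogenase list 4 of 6 genes were higher and 0 lower in GM-CSF M1, with a median of 0.95. Over all genes 6.18% were higher, but the list was chosen with earlier results of these data known, so its count is not independent evidence. Egln3, an oxygen-sensing prolyl hydroxylase, read 9.88 and 9.47 in GM-CSF M1 against 7.19 and 6.95 in M-CSF M2, a difference of 2.60 ± 0.17 (6.07-fold, adjusted p of 0.000584 in limma). Acod1, which makes itaconate, an inhibitor of complex II, read 12.65 and 12.97 in GM-CSF M1 against 11.68 and 11.59 in M-CSF M2, a difference of 1.18 ± 0.14 (2.27-fold, adjusted p of 0.00458). Hif1a, the oxygen-regulated subunit of HIF-1, read 11.73 and 11.61 in GM-CSF M1 against 10.74 and 10.44 in M-CSF M2, a difference of 1.08 ± 0.14 (2.11-fold, adjusted p of 0.00598).

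Bnip3, a receptor for the removal of mitochondria, read 9.72 and 9.41 in GM-CSF M1 against 8.89 and 8.60 in M-CSF M2, a difference of 0.82 ± 0.16 (1.77-fold, adjusted p of 0.0249 in limma). Pdk1, which shuts pyruvate dehydrogenase, differed by 0.43 ± 0.13 (adjusted p of 0.0997) and Lonp1, a matrix protease, by -0.20 with overlapping groups. Without M-CSF M2 replicate 1 or 2 the adjusted p was 0.0261 and 0.0322 for Egln3, 0.0892 and 0.103 for Acod1, 0.0521 and 0.0934 for Hif1a, and 0.127 and 0.230 for Bnip3, so Egln3 alone of these 4 kept its call. Beside them, the respiratory chain isoforms linked to low oxygen, Cox4i2 and Ndufa4l2, had the differences of -0.13 and -0.21 given above.

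**Figure D4:**
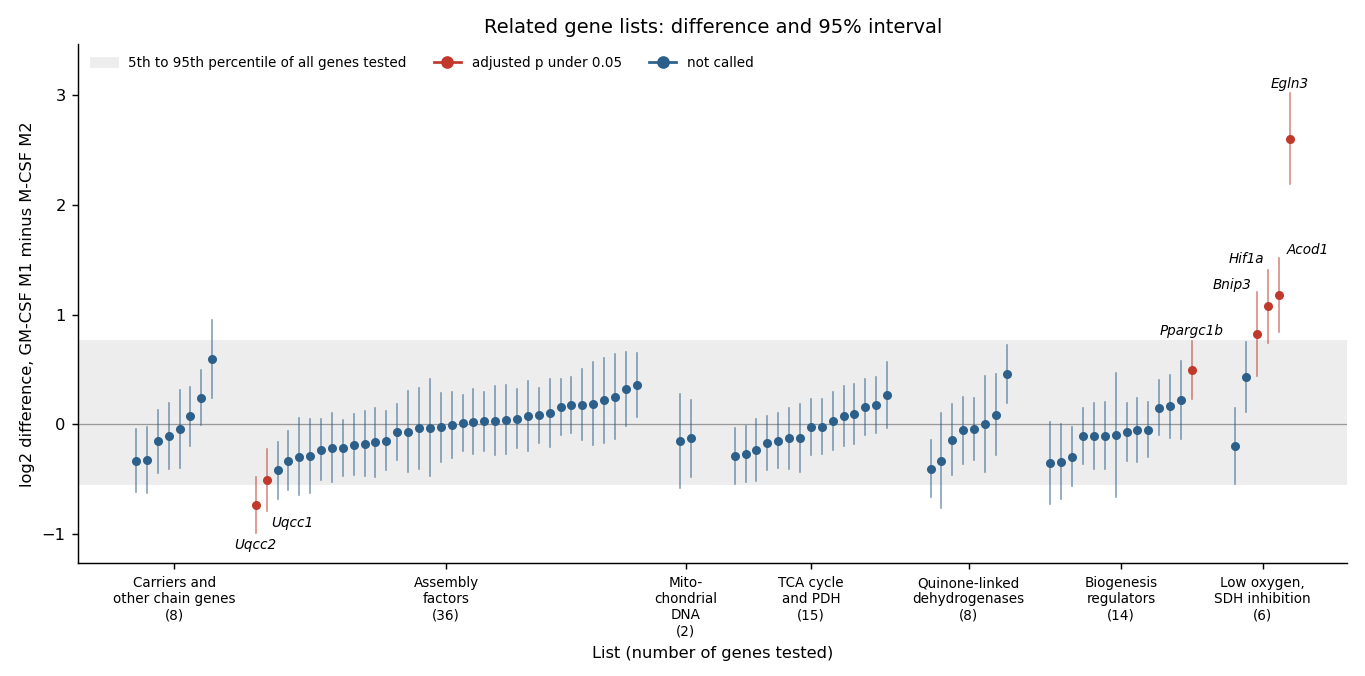
Difference (log2, GM-CSF M1 minus M-CSF M2, y axis) with its 95% interval for genes of 7 related lists along the x axis, with called genes in red and the 5th to 95th percentile of all genes tested as a grey band. Egln3, Acod1, Hif1a, Bnip3 and Ppargc1b lie above 0, and Uqcc1 and Uqcc2 below it.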

How the data were processed

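From each sample of sorted mouse macrophages, 300 ng of total RNA was hybridised to Affymetrix arrays with a biotin label, per the labels' protocols. The authors deposited log2 expression values per probe set. Per the submitters' processing notes, these come from RMA, run in Affymetrix Expression Console 1.1. RMA gives every array the same distribution, so a change in total RNA is not visible and differences of dim genes are reduced. Batches were not given in the sources used here, and the precision is limited by the number of arrays.

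Gene names come from the platform annotation. A single gene symbol was listed for 21789 of 35556 probe sets, several for 1621 and none for 12146. Those with several were not named, among them 6 with a symbol that matches the rule. Of the 19938 genes, 19856 matched a RefSeq table by gene ID. The 999 genes with several probe sets were each read from the probe set with the highest mean. Genes were tested by two-sided limma tests (limma 3.58.1, R 4.3.3, lmFit then eBayes, with no block and with 4.17 prior degrees of freedom beside 2 residual ones) on all 4 arrays, with Benjamini-Hochberg adjustment over the 14995 genes tested and a threshold of 0.05. The same fit was tested on simulated data. Tables and figures were made with Python 3.11.15.

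The members and the lists were chosen with earlier results of these data known. Members named in full were those called, the 3 with the largest absolute difference in each complex, the core and catalytic subunits, those with isoforms and those nearest the filter on dim genes, and of each list up to 3 genes with the largest absolute difference. Other members and list genes were named after their values were seen, to account for every member. Alternatives tried were no filter, a filter at the 50th percentile, array centring, a gene's mean over its probe sets, eBayes with trend and robust variances, the replicate number as a block and leaving out each array.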

Additional observations from a re-analysis of the deposited data

How the results depend on the processing

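Of the 88 members, 2 were called as reported, both lower. The count was 1 with no filter on dim genes, 1 with arrays centred on their medians, 3 with the mean of all probe sets, 5 with a filter at the 50th percentile, 5 with trended and robust variances and 6 with arrays centred on the medians of the genes tested, a setting chosen after seeing the data, and all of these calls were lower. Ndufa4 was called in each of these settings. In each, the share of members called was below that of all genes. It was 1.12% against 6.76% with no filter and 1.14% against 10.79% with arrays centred on their medians. It was 3.41% against 10.63% with the mean of all probe sets and 6.17% against 15.93% with the 50th percentile filter. Trended and robust variances gave 5.68% against 11.98%, and centring on the medians of the genes tested gave 6.82% against 11.38%. Leaving out 1 array at a time gave 0 to 10 members: 7 without GM-CSF M1 replicate 1, 10 without GM-CSF M1 replicate 2 (9 lower, with Ndufc1 higher) and 0 without either M-CSF M2 array. Over all genes it gave 233 to 3205, against 1605, with 2646 and 3205 without GM-CSF M1 replicate 1 and 2 and 261 and 233 without M-CSF M2 replicate 1 and 2. With 1 GM-CSF M1 array left, the spread comes from the M-CSF M2 pair, which lay closer together. With the replicate number as a block, 3 members were called lower (Cox6a2, Ndufa4 and Ndufb2), Cox4i1 had an adjusted p of 0.0712 and Uqcc1 of 0.0603, and 1640 genes were called in all. The labels do not say that the numbers pair samples. Over genes the deviations of same-numbered samples had a correlation of 0.06. With 2 pairs this value cannot show whether same-numbered samples share more than a number.

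The median difference of complex III was 0.023 as reported, -0.020 with arrays centred on the medians of the genes tested and -0.013 to 0.058 when 1 array was left out. That of complex V was -0.074 as reported, -0.12 with arrays centred on the medians of the genes tested and -0.11 to -0.039 when 1 array was left out. The medians of complexes I, II and IV and of the assembly factors stayed below 0 in every setting, and leaving out 1 array moved that of complex II, -0.11 as reported, between -0.18 and -0.0025 and that of the assembly factors, -0.045 as reported, between -0.076 and -0.027. Ppargc1b had an adjusted p of 0.0522 with arrays centred on the medians of the genes tested. Neither Ndufa4 nor Cox4i1 turned its sign in any setting. Cox8c (-0.031) and Ndufs7 (-0.017) turned with arrays centred on the medians of the genes tested. Leaving out 1 array turned the sign of others, none called as reported, with ranges of -0.51 to 0.083 for Ndufa4l2, -0.093 to 0.28 for Ndufaf2, -0.0077 to 0.060 for Ndufs7, -0.37 to 0.040 for Sdhb, -0.25 to 0.075 for Cox7a2l, -0.084 to 0.18 for Ndufs3, -0.10 to 0.020 for Ndufs8, -0.11 to 0.044 for Ndufv2, -0.15 to 0.18 for Cox8c, -0.099 to 0.019 for Cox7a1, -0.23 to 0.011 for Ndufaf4, -0.30 to 0.048 for COX2 and -0.41 to 0.097 for ND3. Of these, Ndufa4l2 was called lower without GM-CSF M1 replicate 2 (adjusted p of 0.0181 in limma) and above 0 without GM-CSF M1 replicate 1, and ND3 was called lower without GM-CSF M1 replicate 1 (0.0499). The cause was not tested.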
